A study of Mus musculus with 12 samples.

Results

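Fga, Fgb and Fgg, the genes of the alpha, beta and gamma chains of fibrinogen, were 3 of the 48321 genes listed for 12 RNAseq libraries of immortalized murine brown adipocytes. They were selected on the measured response to norepinephrine (NE) in vector cells, where Fgb and Fgg had some of the largest increases, and Fga was taken with them as the remaining chain. The levels of the members in vector cells, and every comparison that uses a vector library, are therefore given as a description with no test. All 3 were listed, all 3 had reads, and all 3 passed the filter on low values used for testing.

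The cells were SV40-immortalized wild-type brown preadipocytes from the interscapular depot of C57BL/6J mice (from 1 newborn animal, by the study's methods), stably transduced with the empty lentiviral vector pLEX or with tSema4B, a truncated, soluble Semaphorin 4B. Every group shared the immortalization, puromycin selection and 8 days of differentiation that began in medium with isobutylmethylxanthine, rosiglitazone, dexamethasone, insulin and triiodothyronine. Mature cells were then kept for 6 h in serum-free medium with albumin, either unstimulated or with 2 μM NE, the sympathetic transmitter that activates brown fat. This gave 4 groups of 3 libraries, with 1 line for each construct. According to the labels these 3 are technical replicates, so p-values measure only the spread between these libraries.

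Fibrinogen is the soluble plasma protein that thrombin turns into fibrin, the mesh of a blood clot. It is a dimer of triplets, each with 1 alpha, 1 beta and 1 gamma chain, put together in the endoplasmic reticulum. Hepatocytes make almost all of the plasma pool, and the liver raises its output in the acute-phase response through interleukin-6 and STAT3, together with glucocorticoids. Brown adipocytes are not a known main source. The chain genes lie side by side in 1 cluster.

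In GRCm38 with the GENCODE M21 annotation the cluster spans 42.1 kb of chromosome 3. Fgg (ENSMUSG00000033860.13) lies at chr3:83007724-83015049 on the plus strand, with 9 or 10 exons in its 2 transcripts. Fga (ENSMUSG00000028001.16) follows at chr3:83026076-83033627 on the plus strand, with 5 or 6 exons. Fgb (ENSMUSG00000033831.5), with 8 exons in 1 transcript, lies at chr3:83040141-83049863 on the minus strand. Merged exons cover 2093 bases for Fgg, 3010 for Fga and 3810 for Fgb. Fgg shares 115 exon bases with the antisense lincRNA Gm30097, and the strand setting of the counting is not given in the sources used here. No read was listed for Gm30097.

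The DNA upstream of each gene is shown because the 3 genes are read from separate promoters within this cluster. The sequences are the RefSeq entries for GRCm38.p6, written 5′ to 3′ on the strand of the gene, and all 3 members had an entry. Capitals mark CTGGGA, the core of the type II interleukin-6 response element, which is known from fibrinogen and other acute-phase genes. The Fga stretch, chr3:83025903-83026075 on the plus strand, holds 173 bases, since the 77 bases next to the RefSeq start lie inside the GENCODE gene and are not shown. The Fgb stretch, chr3:83049864-83050113 on the minus strand, and the Fgg stretch, chr3:83007474-83007723 on the plus strand, hold 250 bases each.
Fga: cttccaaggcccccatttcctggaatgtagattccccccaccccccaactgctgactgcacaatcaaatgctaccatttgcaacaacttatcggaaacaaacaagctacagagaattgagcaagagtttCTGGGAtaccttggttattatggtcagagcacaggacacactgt
Fgb: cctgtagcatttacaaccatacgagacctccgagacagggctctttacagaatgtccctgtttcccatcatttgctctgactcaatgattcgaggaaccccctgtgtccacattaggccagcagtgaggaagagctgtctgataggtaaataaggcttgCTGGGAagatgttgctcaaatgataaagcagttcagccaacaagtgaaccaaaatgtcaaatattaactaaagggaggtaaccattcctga
Fgg: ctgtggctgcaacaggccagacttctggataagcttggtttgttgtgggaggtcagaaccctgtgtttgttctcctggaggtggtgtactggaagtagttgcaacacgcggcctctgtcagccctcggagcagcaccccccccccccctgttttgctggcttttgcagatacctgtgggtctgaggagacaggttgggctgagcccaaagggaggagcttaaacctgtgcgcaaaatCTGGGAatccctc

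CTGGGA occurred once in each of the 250-base windows. Counted from the RefSeq start, it lay at -121 to -116 in Fga, at -91 to -86 in Fgb and at -13 to -8 in Fgg. Both strands of 32851 promoter windows of the same length were searched, and 27% of them held these letters. The longer CTGGGAA, which contains the shorter core, was found for Fgb and Fgg and in 9.1% of all windows. Fga and Fgb each held the STAT palindrome TTCNNNGAA (7.02% of windows) and the C/EBP-like TTGCNNAA (9.56%). The Fgg window held the glucocorticoid receptor core AGAACA (16.1%). Neither TGACGTCA (1.55%), the full cAMP response element, nor its core TGACG (17.8%), which the full element contains, was found in any of the 3 windows. These matches are letters in a window and no measure of binding. Not every motif searched is reported here.

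**Figure D1:**
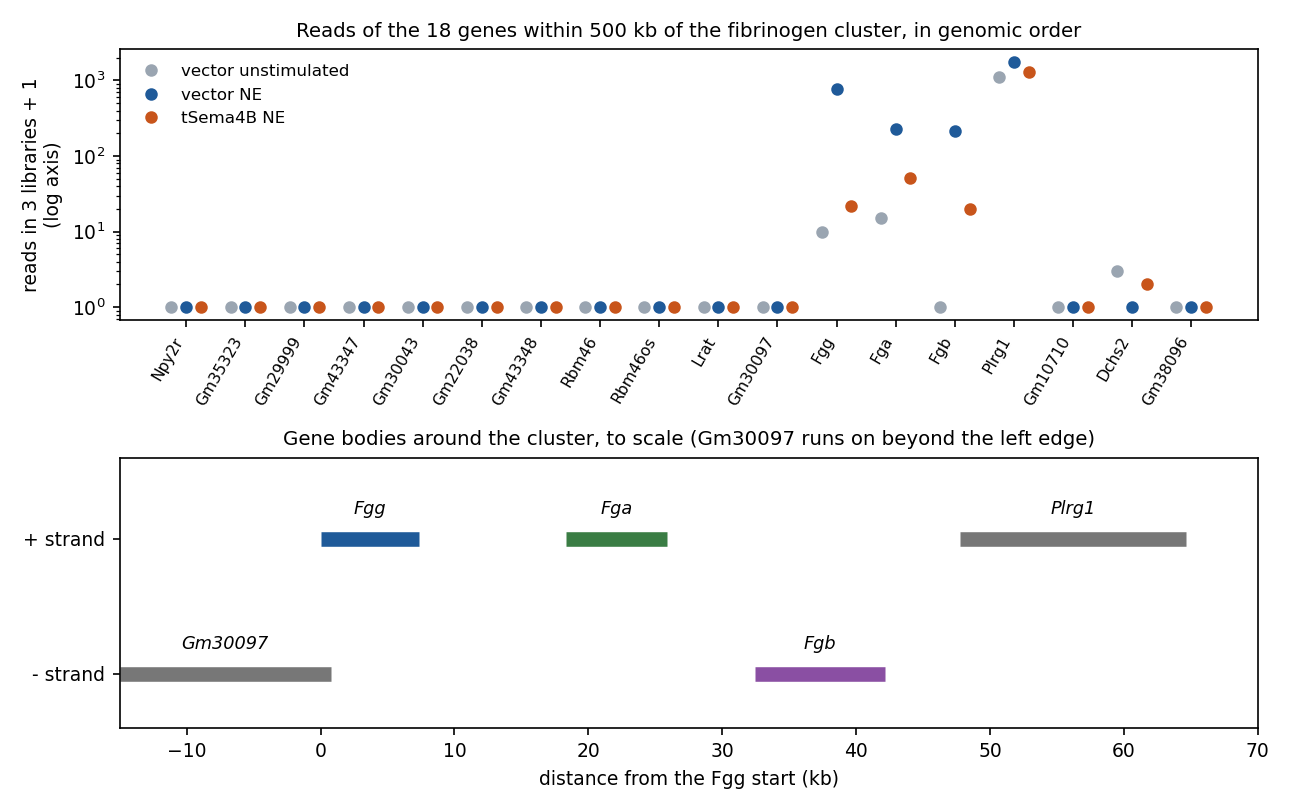
The upper panel plots, on a log axis, the summed reads plus 1 of the 3 libraries of unstimulated vector, NE-treated vector and NE-treated tSema4B cells for the 18 genes within 500 kb of the cluster. The lower panel draws the gene bodies by strand against distance from the Fgg start in kb. Summed reads in unstimulated and NE-treated vector cells are 9 and 776 for Fgg, 14 and 225 for Fga, and 0 and 215 for Fgb. For Plrg1 they are 1122 and 1781.

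Depth ranged from 2000780 to 5409583 reads on genes per library, a 2.7-fold range, and the NE-treated vector libraries were the deepest (4739777 to 5409583). Values below are read counts divided by the size factor of the library (normalized counts), and the reads behind them were recovered. Sema4b itself was higher in tSema4B than in vector cells, with a log2 fold change of 1.27 unstimulated and 1.66 after NE (adjusted p = 9.45e-10 and 1.21e-11). It was also abundant in the libraries labelled vector, with 3.58% to 4.02% of all reads unstimulated and 2.04% to 2.57% after NE, against 8.53% to 10.2% and 7.01% to 8.88% in tSema4B libraries. Reads of the construct and of the endogenous gene were not told apart. Ucp1, the uncoupling protein of brown fat and a target of NE, rose with NE in both lines, from 12.1 ± 2.98 to 276 ± 14.5 normalized counts in vector cells (SD, n = 3; limma adjusted p = 3.79e-08) and from no read to 62.9 ± 3.10 in tSema4B cells (8.46e-10). Of 12 NE and cAMP response genes tested, 5 rose in vector and 2 in tSema4B cells, against 1.66% and 1.31% of all genes tested.

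The fibrinogen genes were almost silent in unstimulated cells and had their highest levels in NE-treated vector cells. Of 1334 reads counted on the 3 genes in all libraries, 1216 (91.2%) were in the 3 NE-treated vector libraries. That share was 77.3% for Fga, 91.9% for Fgb and 95.9% for Fgg. Of normalized counts, which correct for the greater depth of these libraries, it was 67.4%, 86.9% and 93.2%.

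For Fgb, which encodes the beta chain, no read was counted in any of the 6 unstimulated libraries. After NE the vector libraries held 67, 51 and 97 reads, or 45.0, 30.2 and 63.5 normalized counts. The tSema4B libraries held 9, 5 and 5 reads after NE, or 9.65, 4.73 and 6.61 normalized counts. Each NE-treated library thus lay above each unstimulated one, and the NE-treated lines did not overlap. The mean Fgb level with NE was 15.3 times a floor of 3 reads per library in vector cells and 1.70 times in tSema4B cells. From reads pooled per group and scaled, the ratio of NE to unstimulated had no finite value, as no unstimulated read was counted. Its 95% counting interval began at 37.2 in vector and at 3.77 in tSema4B cells.

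Fgg encodes the gamma chain, through which fibrinogen binds platelets and crosslinks to other fibrin units. Unstimulated vector libraries held 2, 2 and 5 reads and unstimulated tSema4B libraries 0, 0 and 3. With NE it was counted 203, 239 and 334 times in vector cells, which is 136, 142 and 219 normalized counts. NE-treated tSema4B cells had 11, 6 and 4 reads, which is 11.8, 5.68 and 5.29 normalized counts. The lowest of these was above the highest unstimulated tSema4B library (4.11), but within the range of the unstimulated vector libraries (1.68 to 5.45). From reads pooled per group and scaled, the ratio of NE to unstimulated was 55.5 in vector cells (95% counting interval 29.1 to 122). In tSema4B cells it was 5.65 (1.69 to 29.6), on 21 reads against 3.

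Fga encodes the alpha chain, which carries the fibrinopeptide that thrombin removes first. It was the only member with more than 5 reads in an unstimulated library. Its reads there were 10, 1 and 3 in vector cells and 2, 0 and 0 in tSema4B cells. NE-treated vector libraries held 53, 83 and 89 reads, or 35.6, 49.2 and 58.3 normalized counts, and NE-treated tSema4B libraries 14, 29 and 7 reads, or 15.01, 27.5 and 9.25. The NE-treated groups did not overlap, whereas the lowest NE-treated tSema4B library lay below unstimulated vector replicate 1 (10.9). The pooled ratio of NE to unstimulated was 10.4 in vector cells (6.04 to 19.2) and 20.2 in tSema4B cells (5.30 to 171), the latter on 50 reads against 2. On the footing used for Fgb, the mean level in NE-treated tSema4B cells was 4.20 times the floor of 3 reads per library for Fga, 1.85 times for Fgg and 1.70 times for Fgb. These intervals and floors express counting error alone, since PCR copies of 1 molecule are counted as separate reads.

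**Figure D2:**
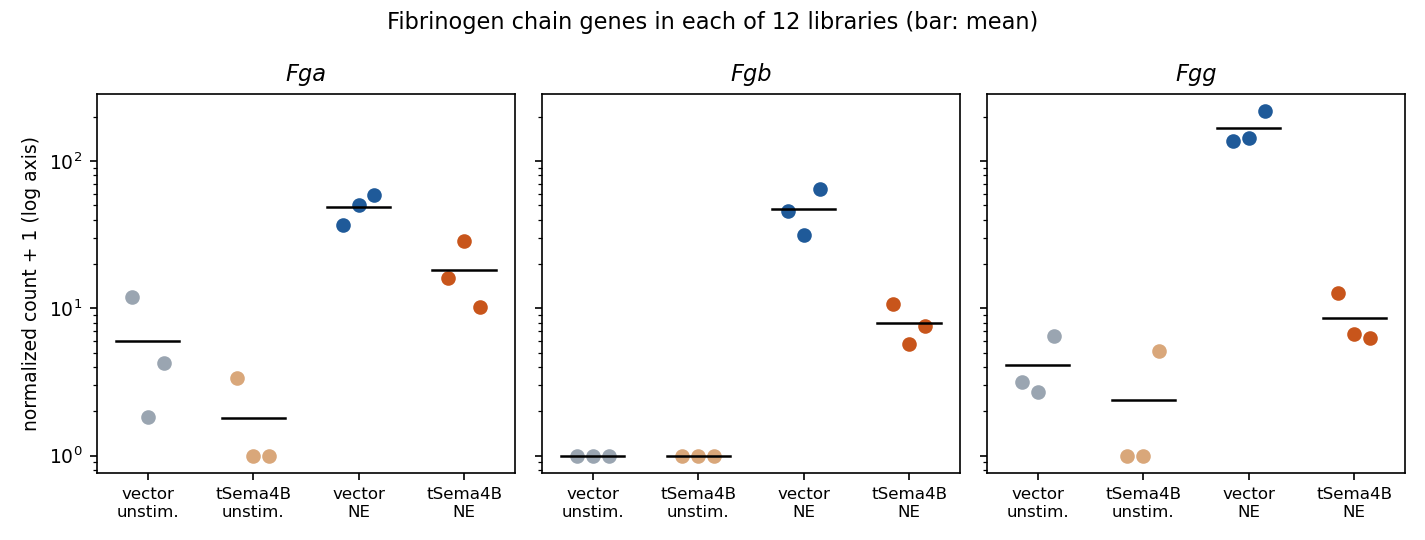
Each point is 1 library, plotted as normalized count plus 1 on a log axis, with a bar at the mean of each group (n = 3), for Fga, Fgb and Fgg. The NE-treated vector libraries are the highest in every panel, and all 6 unstimulated libraries of Fgb sit at 0 reads.

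Group means put the levels in the same order for Fga and Fgg. Fga had a mean of 47.7 ± 11.4 normalized counts (SD, n = 3) in NE-treated vector cells and 17.2 ± 9.31 in NE-treated tSema4B cells, then 4.99 ± 5.23 in unstimulated vector and 0.795 ± 1.38 in unstimulated tSema4B cells. For Fgg the means in that order were 165.6 ± 46.1, 7.59 ± 3.65, 3.10 ± 2.05 and 1.37 ± 2.37. For both genes NE-treated vector cells stood clear of the other groups, and each further pair of neighbours in the order overlapped. Fgb had 46.2 ± 16.7 in NE-treated vector cells, 7.00 ± 2.48 in NE-treated tSema4B cells and 0 in both unstimulated groups.

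Per kb of merged exon, Fgg was also the highest chain in NE-treated vector cells. Its level per kb was 79.1 ± 22.01 normalized counts (SD, n = 3), against 15.8 ± 3.79 for Fga and 12.1 ± 4.38 for Fgb. The ranges of Fga and Fgb per kb overlapped there (11.8 to 19.4 and 7.93 to 16.7). In NE-treated tSema4B cells the levels per kb were 5.73 ± 3.09 for Fga, 3.63 ± 1.74 for Fgg and 1.84 ± 0.651 for Fgb, and the Fga and Fgg libraries overlapped.

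After NE, Fgg supplied most of the fibrinogen reads in vector cells, while in tSema4B cells Fga had the most reads of the 3 chains. In vector cells Fgg made up 63.8% of the 1216 reads of the 3 genes (95% Wilson interval 61.1 to 66.5), Fga 18.5% and Fgb 17.7%. The share of Fgg was nearly the same in each of these libraries, at 62.8%, 64.1% and 64.2%. In tSema4B cells the 90 reads of the 3 genes were 55.6% Fga (45.3 to 65.4), 23.3% Fgg (15.8 to 33.0) and 21.1% Fgb. The Fga share of single tSema4B libraries was 41.2%, 72.5% and 43.8%, so the pooled share was drawn up by replicate 2. Corrected for exon length, Fgg was above Fga in replicate 1 (42.8% against 37.9%). These Wilson intervals, too, cover counting error only. The difference between the lines was not tested, because vector libraries had chosen the genes.

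**Figure D3:**
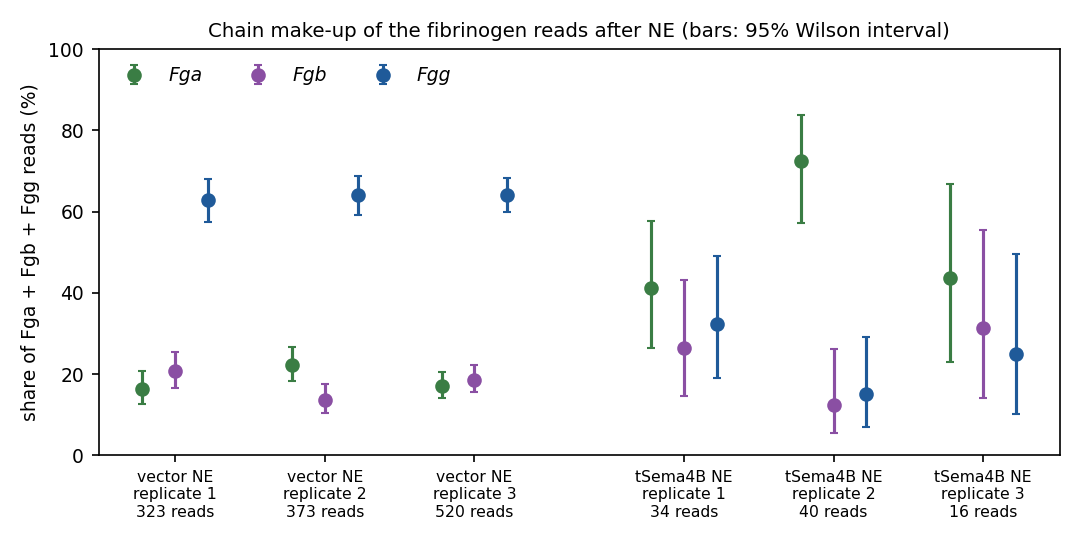
Points show, for each NE-treated library, the share of Fga, Fgb and Fgg among the reads of the 3 genes (percent), with bars for the 95% Wilson interval and the number of reads under each library. Fgg holds between 62.8% and 64.2% in the vector libraries, and Fga has the most reads in each tSema4B library, with a share between 41.2% and 72.5%.

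The Fgb and Fgg chains were also set against each other without Fga. Fgg made up 78.3% of the 991 Fgb and Fgg reads in NE-treated vector cells (75.6 to 80.8) and 52.5% of 40 such reads in NE-treated tSema4B cells (37.5 to 67.1). Corrected for exon length, these shares were 86.8% and 66.8%. A planned exact permutation test of this share with NE in tSema4B cells could not be run, since its unstimulated libraries held at most 3 such reads.

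The size of the members' NE response in tSema4B cells was tested, because this comparison shares no library with the one that chose them. The test was limma on log2(normalized count + 1), where a call needed an adjusted p of 0.05 and a log2 fold change of 1. Over all 11998 genes tested, 1.31% were called higher in this comparison and 0.758% lower, and the NE and unstimulated libraries did not overlap, with NE higher, for 11% of genes, the members among them. The members entered the test with the help of the vector libraries that chose them, through the filter on low values (at least 10 normalized counts in 3 libraries), so their number called is not given. Fgb reached 10 in the 3 NE-treated vector libraries only, Fgg in these and 1 NE-treated tSema4B library, and Fga in 6 libraries, 2 of them NE-treated tSema4B. No member would have passed among the tSema4B libraries alone, and the spread in the test was estimated over all 12 libraries. With no filter on low values, the adjusted p was 0.0181 for Fga, 0.0181 for Fgb and 0.129 for Fgg. This fit, too, took its spread from all 12 libraries, so these p-values are not free of the vector libraries.

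Fga rose by a log2 fold change of 3.48 in tSema4B cells (SE 0.706, adjusted p = 0.00343). Each of the 15 alternatives that gave a value kept its call (adjusted p between 0.0019 and 0.0293), and its log2 fold change ran from 1.29, with a pseudocount of 10, to 4.30 by DESeq2. The value of Fgb was 2.95 on this scale (SE 0.741, adjusted p = 0.0177), in a test that it entered through the NE-treated vector libraries only. A model of only the 6 tSema4B libraries left out every member, Fga included. No p free of vector libraries is therefore available for any of them. The call of Fgb was lost with a pseudocount of 10 (0.76, adjusted p = 0.102) and without NE-treated tSema4B replicate 1 (2.72, adjusted p = 0.0613). Its adjusted p ran from 0.00767 to 0.102 over 15 alternatives. With no unstimulated read, its log2 fold change depended on the method and ran from 0.76 to 5.90, by edgeR, with 4.80 by DESeq2. The value of Fgg was 2.24 (SE 0.651, adjusted p = 0.0425), and its call was lost with no filter.

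Of 16 alternatives, 11 ended the call of Fgg, and its log2 fold change was above 0 in each (adjusted p between 0.00492 and 0.195). Among these, edgeR on the recovered reads gave 2.40 (adjusted p = 0.0944) and DESeq2 2.49 (adjusted p = 0.0886). It was also lost when 5 of the 6 libraries were left out in turn. The values were 1.85 without unstimulated replicate 1 (adjusted p = 0.129) or replicate 2 (0.128), and 1.91, 2.38 and 2.42 without NE-treated replicate 1, 2 or 3 (adjusted p = 0.13, 0.066 and 0.0547). With 3 libraries on each side, no exact permutation test can reach a p below 0.1.

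In vector cells, where the rule chose the members, the fitted log2 fold changes with NE were 5.50 for Fgb, 5.42 for Fgg and 3.40 for Fga. Of all 11998 genes, 1.66% were called higher in this comparison and 0.975% lower. The NE-treated libraries lay above all unstimulated ones for each member, as they did for 17.6% of genes. With the pseudocount of 1, Fga had fitted values of 3.40 and 3.48 in the 2 lines. Those of Fgb were 5.50 and 2.95, and those of Fgg 5.42 and 2.24. The Fga values depend on the pseudocount, and at 10 they were 1.98 in vector and 1.29 in tSema4B cells. Its pooled ratios of NE to unstimulated were 10.4 and 20.2. With each library left out in turn, the Fga value ran from 2.75 to 4.09 in vector and from 3.09 to 4.06 in tSema4B cells. Whether the response to NE differs between the lines was not tested for the members. The fitted value of Fgb rests on the pseudocount, as its unstimulated groups are at 0.

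After NE, the level in vector cells was 2.77 times that in tSema4B cells for Fga, 6.61 times for Fgb and 21.8 times for Fgg. The lowest vector library was above the highest tSema4B library for each member, at 35.6 against 27.5 for Fga, 30.2 against 9.65 for Fgb and 136 against 11.8 for Fgg. Such a gap, with tSema4B lower, was present for 19.8% of all genes tested. The fitted log2 fold changes of tSema4B against vector after NE were -1.51, -2.55 and -4.32 for Fga, Fgb and Fgg. In unstimulated cells the lines overlapped for every member, with at most 10 reads in a library. In bulk RNA, fewer cells of a type and less RNA per cell cannot be told apart.

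The lines also differed in the markers of the cells themselves. They differed, too, in the share of reads on mitochondrial genes, at 13.4% to 16.7% in vector and 6.91% to 7.89% in tSema4B libraries. The summed normalized counts of 10 adipocyte markers, all detected, were 48700 to 61020 in NE-treated vector libraries and 10080 to 11590 in NE-treated tSema4B libraries. They were 34560 to 38590 and 5858 to 8412 in the unstimulated libraries. Fabp4, a fatty acid carrier, made up most of the sum in vector cells, with 24030 ± 975 unstimulated and 40900 ± 5624 after NE. Plin1, a lipid droplet coat protein, and Pparg, the main transcription factor of adipocytes, went the other way with NE in vector cells, from 470 ± 65.3 to 244 ± 65.2 and from 356 ± 51.4 to 217 ± 31.6. Both passed the adjusted p (0.03 and 0.0146) and missed the fold threshold. The sum of 10 preadipocyte and fibroblast markers, mostly the collagens Col3a1 and Col1a1, was 13870 to 15960 in vector and 29430 to 31160 in tSema4B cells after NE. Of 6 epithelial markers, which summed to 17.8 to 28.2 in NE-treated vector and 3.22 to 9.25 in NE-treated tSema4B cells, Krt8 and Cldn4 had no read and nearly all counts were of Krt19. Of 6 endothelial markers, which summed to 5.24 to 13.04 and 12.9 to 17.2, Kdr and Cldn5 had no read and most counts were of Pecam1. The part of these differences in the fibrinogen levels was not tested.

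Hepatocytes, the usual source of fibrinogen, were looked for through 15 marker genes. Of these, 8 had no read in any library (Alb, Ttr, Apob, Ambp, Hnf4a, Cps1, F2 and Plg), among them albumin, the most abundant product of the liver. The remaining 7 summed to 9.25 to 19.6 normalized counts in unstimulated vector cells and 11.4 to 32.7 in NE-treated vector cells. In tSema4B cells the sums were 0 to 5.96 and 1.07 to 7.93. In vector cells most of these counts were of Ahsg, which encodes fetuin-A, with means of 10.9 ± 5.65 and 17.6 ± 9.81 in unstimulated and NE-treated vector cells. Platelets, which carry fibrinogen, were looked for with 11 markers, among which Gp6, Gp9 and Clec1b had no read. Their sum was 18.1 to 41.3 in NE-treated vector and 40.7 to 64.7 in NE-treated tSema4B cells, mostly of the integrin gene Itga2b (means 25.2 and 44.9).

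Of 8 macrophage markers, Csf1r was called higher with NE in both lines. The sum of the 8 was 13.1 to 21.7 in unstimulated and 41.7 to 59.6 in NE-treated vector cells, and 17.8 to 29.4 and 25.7 to 52.1 in tSema4B cells, where the ranges overlapped. Adgre1, Ptprc and C1qa had no read in any library. Csf1r, the receptor of a macrophage growth factor, rose in both lines, from 1.37 ± 0.708 to 11.5 ± 2.50 in vector and from 1.31 ± 1.37 to 15.8 ± 5.42 in tSema4B cells (adjusted p = 0.0289 and 0.0119). Cd14, a receptor for bacterial lipopolysaccharide, rose from 12.9 ± 3.77 to 32.3 ± 3.90 in vector cells (adjusted p = 0.0464) and was at 19.5 ± 8.87 and 20.7 ± 5.99 in tSema4B cells (adjusted p = 0.904). The part of these markers in the rise of the fibrinogen genes was not tested.

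Plrg1 was the only gene near the cluster with more than a few reads. Of 15 further genes within 500 kb, 13 had no read in any library and Dchs2 had 5 reads in all. This splicing factor, whose gene starts 5.7 kb beyond Fgb, was counted with 248 to 677 reads in every library. Its mean was 367 ± 30.3 normalized counts in unstimulated and 378 ± 31.9 in NE-treated vector cells (log2 fold change 0.04, SE 0.114, adjusted p = 0.888). The sign of this value turned under 4 of 17 alternatives. In tSema4B cells it was 389 ± 35.7 and 471 ± 17.6 (0.28, adjusted p = 0.16).

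The known regulators of fibrinogen transcription were examined as a list of 27 genes, 18 of them tested. In vector cells 6 rose with NE, in tSema4B cells 3 rose, and none was called lower in either by limma, edgeR or DESeq2. Over all genes tested, limma called 1.66% higher and 0.975% lower in vector cells, and 1.31% and 0.758% in tSema4B cells. Lifr, the receptor of leukemia inhibitory factor and the 1 gene lower at an unadjusted p under 0.05, passed the adjusted p in both lines but not the fold threshold, with log2 fold changes of -0.78 and -0.57 (adjusted p = 0.000709 and 0.0136). The list had a median log2 fold change of 0.65 in vector and 0.55 in tSema4B cells, where those of all tested genes were -0.02 and -0.0048. Il6, the cytokine that drives hepatic fibrinogen synthesis, had 0, 0 and 5 reads in unstimulated and 59, 32 and 45 in NE-treated vector libraries (log2 fold change 3.97, SE 0.771, adjusted p = 0.00162). In tSema4B cells its reads were 2, 0 and 4, then 19, 22 and 17 (2.99, SE 0.771, adjusted p = 0.021). NE-treated libraries of Il6 lay above unstimulated ones in both lines.

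Of 16 alternatives, 4 ended the call of Il6 in tSema4B cells (adjusted p between 0.00429 and 0.0952). It was 2.25 without unstimulated replicate 2 (adjusted p = 0.0952), 3.00 without NE-treated replicate 2 (0.0598), 2.95 without NE-treated replicate 3 (0.0589), and 2.99 with no filter (0.0685). Socs3, a STAT3 target that dampens the interleukin-6 signal, rose from 57.5 ± 11.9 to 213 ± 16.2 in vector cells and from 80.3 ± 32.4 to 206 ± 35.0 in tSema4B cells. Its log2 fold changes were 1.89 and 1.41 (adjusted p = 8.11e-06 and 0.000422), and it was called under each of 17 alternatives in both lines.

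Other members of the list rose in vector cells and were not called in tSema4B cells. Osmr, the oncostatin M receptor, had log2 fold changes of 1.23 and 0.78, and the C/EBP factor Cebpd 1.35 and 0.92. In tSema4B cells both passed the adjusted p (3.54e-05 and 0.000685) and missed the fold threshold. Cebpb, also a C/EBP factor, had 1.22 in vector and 0.59 in tSema4B cells, where its adjusted p was 0.263. Crem, a transcription factor of the cAMP response, rose in both (1.69 and 1.40). Stat3 itself had log2 fold changes of 0.71 and 0.51, under the threshold of 1. The difference between lines was not tested for these genes. Cebpa, a C/EBP factor of mature adipocytes and of liver, did not pass the test with NE in either line and was lower in tSema4B than in vector cells by 2.52 on the log2 scale unstimulated and 1.93 after NE (adjusted p = 1.1e-07 and 4.49e-06). No read was counted in any library for Hnf4a, Foxa2 or Onecut1, factors that set the liver programme. Foxa1 had few reads, in total 1 and 6 in unstimulated and NE-treated vector cells and 8 and 11 in tSema4B cells.

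**Figure D4:**
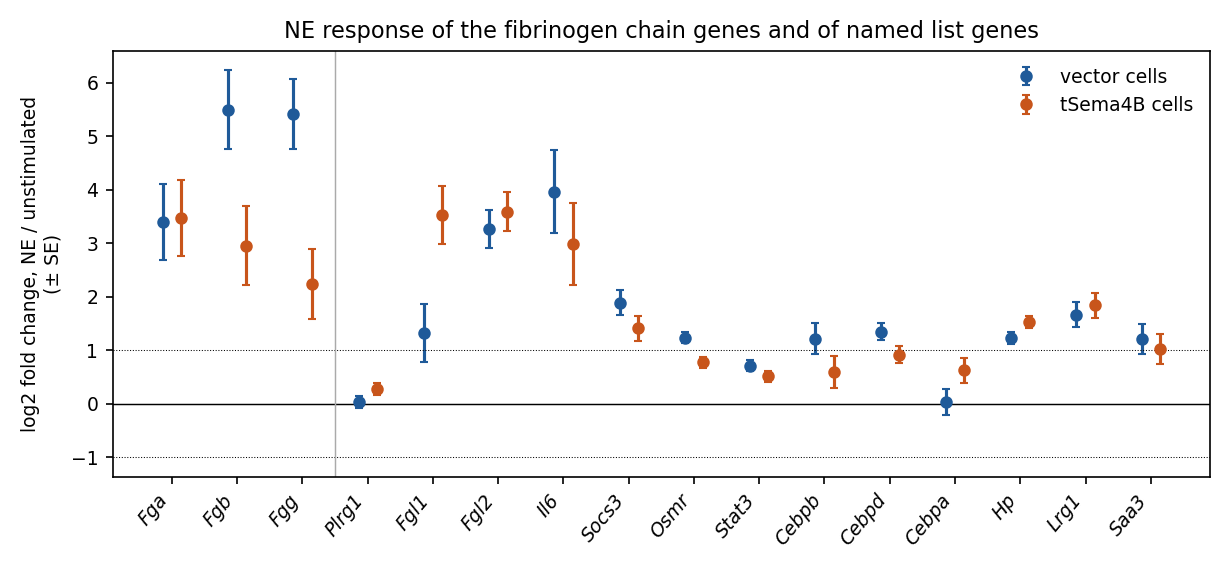
Points show the fitted log2 fold change of NE against unstimulated in vector and in tSema4B cells, with bars of 1 SE, for the fibrinogen genes (left of the line), Plrg1 and genes of the lists, and dotted lines mark the threshold of 1 in size. Fgb and Fgg have values of 5.50 and 5.42 in vector cells, where they were chosen, and Fga has values of 3.40 and 3.48 in the 2 lines.

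Acute-phase proteins, which the liver secretes with fibrinogen, were taken as 32 genes, 16 of them tested. With NE 5 rose in vector cells and 3 in tSema4B cells by limma, and none fell by limma, edgeR or DESeq2 (1 was lower in each line at an unadjusted p under 0.05). Limma called 1.66% and 1.31% of all genes tested higher. The list medians were 0.73 and 0.23. Haptoglobin (Hp) rose from 1121 ± 147 to 2610 ± 145 in vector and from 175 ± 13.2 to 505 ± 45.1 in tSema4B cells (log2 fold changes 1.22 and 1.52, adjusted p = 1.07e-07 and 5.59e-09). Lrg1, a secreted glycoprotein, rose by 1.67 and 1.84 (adjusted p = 6.06e-05 and 2.73e-05). Crp and Apcs, the classical pentraxins of this response, had no read.

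Between the lines, part of the acute-phase list was lower in tSema4B cells. Of the 16 tested, 6 were called lower and none higher in unstimulated cells, where 2.71% of all genes were called lower and 1.11% higher. After NE 8 were called lower and none higher, against 3.73% and 2.03% of all genes. In both conditions 2 list genes were higher at an unadjusted p under 0.05, and none was called higher by edgeR or DESeq2. Cp, the copper protein ceruloplasmin, was one that went this way in both, with log2 fold changes of 0.84 and 0.90 (adjusted p = 3.41e-05 and 1.15e-05) that missed the fold threshold. Hp was lower by 2.67 on the log2 scale unstimulated and by 2.37 after NE (adjusted p = 1.19e-13 and 7.19e-13).

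Fibrinogen-like and other fibrinogen-domain genes gave a mixed picture. Fgl2, a membrane protein that can cleave prothrombin, rose with NE from 20.3 ± 8.06 to 196 ± 18.3 in vector cells and from 27.2 ± 16.9 to 292 ± 52.3 in tSema4B cells (log2 fold changes 3.27 and 3.59, adjusted p = 2.48e-06 and 8.52e-07). Fgl1, a secreted liver protein, had 25, 17 and 10 reads in unstimulated vector libraries and 59, 65 and 75 with NE, and was not called there by limma (log2 fold change 1.33, adjusted p = 0.123). In tSema4B cells it had 0, 1 and 0 reads, then 15, 16 and 10 with NE, a log2 fold change of 3.53 (adjusted p = 0.000197). Of 10 genes tested in this list, 2 rose and 1 fell in vector cells and 3 rose and 1 fell in tSema4B cells by limma, with list medians of -0.33 and -0.48. The shares of all genes tested were 1.66% higher and 0.975% lower in vector cells, and 1.31% and 0.758% in tSema4B cells. In vector cells edgeR and DESeq2 each called 3 higher and 2 lower, and in tSema4B cells each gave the counts of limma.

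Genes for the clotting machinery that acts on fibrinogen were in part without reads. Of 35 coagulation and fibrinolysis genes, 10 had no read in any library, among them F2 (prothrombin), F13b (a subunit of the factor that crosslinks fibrin) and Plg (plasminogen, which dissolves it). Of the 15 tested, 2 rose and 1 fell with NE in vector cells, and 1 rose and 1 fell in tSema4B cells, with list medians of -0.09 in both. Among all genes tested, 1.66% rose and 0.975% fell in vector cells, and 1.31% and 0.758% in tSema4B cells. Thbd, the thrombin receptor thrombomodulin, rose in both lines (2.05 and 1.41, adjusted p = 1.39e-05 and 0.00133). F3, the tissue factor that starts clotting, fell in both, with log2 fold changes of -1.08 and -1.10 (adjusted p = 1.13e-05 and 1.43e-05). Without vector unstimulated or NE-treated replicate 1, F3 in vector cells was at -0.99 or -0.98, just inside the threshold.

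Among receptors and matrix partners of fibrinogen, and the proteins that fold and export it, 1 gene responded to NE past both thresholds. Of 11 receptor and partner genes tested, only Sdc1 was called, a heparan sulfate proteoglycan that rose in both lines (1.29 and 1.38, adjusted p = 3.79e-08 and 1.50e-08). Called higher over all genes tested were 1.66% in vector and 1.31% in tSema4B cells. Of the 15 genes for assembly and export from the endoplasmic reticulum, all tested, none was called in either line by limma, edgeR or DESeq2. At an unadjusted p under 0.05, 2 were higher and 1 lower in vector cells and 4 higher in tSema4B cells. At an adjusted p of 0.05 with no fold threshold, 1 was higher and 1 lower in vector cells, where 6.82% and 4.78% of all genes were, and none in tSema4B cells, where 3.68% and 2.58% were. Their median log2 fold changes were 0.04 and 0.15.

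Likeness of pattern was measured as the Pearson correlation of log2 values over the 12 libraries, as a description. The libraries fall into 4 groups, so the values mostly restate the group means. Fgb and Fgg had an r of 0.921 with each other, Fga and Fgb 0.869 and Fga and Fgg 0.813. The genes most like Fgb were Slc25a51 (0.971), Eif6, Gnl3, Ncl and Aimp2. Those most like Fgg were Nnmt (0.969), Mt1, Farsb, Serbp1 and Rpl36al. By Spearman correlation 0 of the first 5 and 3 of the second 5 stayed in the lists. Nnmt, a methyltransferase of nicotinamide, went from 230.5 ± 39.3 to 697 ± 67.1 in vector and from 163 ± 43.1 to 288 ± 58.9 in tSema4B cells.

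Within NE-treated vector cells the 3 chains moved in part together. Replicate 3 was the highest for every chain, at 1.22 times the group mean for Fga, 1.37 for Fgb and 1.32 for Fgg. Replicate 2 had the lowest Fgb (0.654 times the mean) and replicate 1 the lowest Fga (0.747). Among NE-treated tSema4B libraries, replicate 2 held the highest Fga (1.59 times the mean) and the lowest Fgb (0.677), and replicate 1 held the highest Fgb and Fgg (1.38 and 1.56).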

How the data were processed

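Values in 12 libraries (4 groups of 3, grouped by their labels) were analysed, and 0 columns of values were unused. The authors made full-length cDNA and Nextera libraries, removed single-end reads of other species, mapped the rest to GRCm38 with STAR 2.7.9a and counted them per gene with HTSeq. The deposited signal is a read count per gene divided by a DESeq2 size factor. All values (100%) were whole multiples of 1 read within 0.01, so reads were recovered. Annotation, strand setting and the handling of multimapping reads are not given in the sources used here, and positions come from GENCODE M21.

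One limma model (3.58.1, R 4.3.3) with trended moderated variance was fitted to log2(normalized count + 1) of the 11998 genes that reached 10 normalized counts in 3 or more libraries. P-values are two-sided and were adjusted over these genes by Benjamini-Hochberg. A call needed an adjusted p no higher than 0.05 together with a log2 fold change of 1 or more in either direction. The script was tested on simulated data. Depth, between 2000780 and 5409583 reads, sets the precision of the low counts of the fibrinogen genes. A floor of 3 reads and Wilson intervals at 95% were used. Promoters (RefSeq, 250 bases) were searched on both strands with Python 3.11.15. Alternatives used edgeR 4.0.16, DESeq2 1.42.0 and the settings given in the closing section.

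The fibrinogen genes and all lists were chosen with earlier results of these data known. The genes named are the fibrinogen genes, Sema4b, genes with reads within 500 kb, for each list and comparison the called genes with the largest changes in each direction whose groups did not overlap, and the 5 genes most correlated with Fgb and with Fgg. Cebpb, Cebpd, Osmr, Stat3, Crem in vector cells, Foxa1, Ahsg, Fabp4, Plin1, Pparg, Col3a1, Col1a1, Krt19, Pecam1, Itga2b, Csf1r, Cd14, Lifr, Cp, Crp, Apcs and genes named for having no read were added after their values were seen. Some genes of the lists are not reported here.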

Additional observations from a re-analysis of the deposited data

How the results depend on the processing

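The NE response in tSema4B cells depended on how low counts were treated, on the method and on single libraries. The log2 fold change of Fgb was 5.90 by edgeR and 4.80 by DESeq2, against 2.95 in the main fit. With a pseudocount of 10 the log2 fold change was 1.29 for Fga, which was still called, 0.755 for Fgb and 0.63 for Fgg, which were not. Fgg, at 2.24, was also not called when low genes were kept or the filter was set at 50 normalized counts, nor with quantile normalization (1.86), edgeR (2.40) or DESeq2 (2.49). With each library left out in turn, values ran from 3.09 to 4.06 for Fga, from 2.72 to 3.17 for Fgb and from 1.85 to 3.02 for Fgg. The filter at 50 left out Fga and Fgb, and a model of only the 6 tSema4B libraries left out all 3, so these gave no value. Among the descriptive values, the pseudocount of 10 moved the response in vector cells to 1.98 for Fga, 2.45 for Fgb and 3.72 for Fgg, and the difference between lines after NE to -1.69 for Fgb and -3.31 for Fgg. For Fgb in vector cells a pseudocount of 0.5 gave 6.48, edgeR 8.62 and DESeq2 7.98. Fgg was 86.8% of Fgb and Fgg reads in NE-treated vector cells per kb. By rank correlation 0 of 5 genes most like Fgb and 3 of 5 most like Fgg were shared.

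The replicate number as a block changed no call of the fibrinogen genes and moved list genes higher with NE in vector cells from 20 to 19. The log2 fold changes of Fga, Fgb and Fgg in tSema4B cells stayed at 3.48, 2.95 and 2.24 (adjusted p = 0.00426, 0.0281 and 0.0382). Same-numbered libraries had correlations from -0.047 to 0.0282 over 18 pairs, 0 of them over 0.1. They thus shared no detectable deviation from their group means. Whether they share a culture or a day cannot be told from this.

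Counts of called genes moved most without the fold threshold. Those higher became 818 and those lower 574 with NE in vector cells, 441 and 309 in tSema4B cells, 677 and 887 for tSema4B against vector unstimulated, and 1175 and 1342 after NE. Genes lower with NE in vector cells were 68 with a pseudocount of 10 and 77 with no filter, and in tSema4B cells 59 with a filter at 50 and 52 in a model of only the 6 libraries. Genes higher in tSema4B after NE were 138 with a pseudocount of 10. Of the list genes, 7 and 8 were lower with NE in vector and tSema4B cells without the fold threshold, and 1 in tSema4B cells with a filter at 50 or only the 6 libraries. List genes higher in unstimulated tSema4B cells were 22 without the fold threshold and 2 with a pseudocount of 10 or a filter at 50. After NE they were 20 without the fold threshold, 4 with libraries rescaled to the same total, 2 by quantile normalization, edgeR or DESeq2, and 0 with a pseudocount of 10 or nuclear rescaling. With each library left out, the list genes lower with NE ran from 1 to 3 in vector and from 2 to 4 in tSema4B cells, and those higher in tSema4B cells from 1 to 5 unstimulated and from 0 to 4 after NE. The response of Plrg1 in vector cells turned to -0.00608 with the same total, -0.0163 by quantile normalization, and with each library left out it ran from -0.0114 to 0.11. Except where a setting tests fewer genes or libraries, the cause was not tested.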
